A study of Homo sapiens with 6 samples.

Results

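Transcription units with exactly 2 poly(A) sites 200 to 999 nt apart were examined by A-seq in HEK293, a cell line from human embryonic kidney. This method counts reads that end where a transcript was cut and polyadenylated. To choose the units, each of the 6 libraries was scaled to its total (counts per 1e6 reads, CPM) and all were pooled at equal weight. The highest position and all read ends within 25 nt of it on its strand made a site, and so on through the remaining positions. Nuclear sites with a mean of 1 CPM or more were kept, and sites on 1 strand with gaps of at most 5000 nt were joined into a unit. Of 28114 units, 4645 held exactly 2 sites, and in 1196 of these the sites lay 200 to 999 nt apart. These 1196 units are called pairs here, and the upstream site of a pair is called proximal and the downstream site distal. In 1123 other 2-site units the distance was under 200 nt, and in 2326 it was 1000 nt or more. The pairs were thus selected on pooled read levels and on distance, not on a change between libraries. Because of this, a site used in a single library could enter through that library alone. Without the CF Im68 library 127 pairs had a site under 1 CPM, without the RNase I scrambled library 108, and without each of the other libraries between 49 and 72, 322 pairs in all. The levels of the pairs are therefore a description only. The sites of a pair may also be the ends of neighbouring genes on the same strand, which cannot be told apart here from tandem sites of 1 transcript, so that a change of share may be a change in the levels of different genes.

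The cells had received siRNA against CF Im25, CF Im59 or CF Im68, a scrambled siRNA, or no siRNA, and those given siRNA were harvested after 3 days. RNA was fragmented by alkaline hydrolysis for the CF Im25, CF Im59, first scrambled and no-siRNA libraries. RNase I was used for the CF Im68 library and for a second scrambled library. Each group was 1 library, so no difference had a replicate check and none has a p-value, and depth ranged between 5351980 and 18183644 reads. CF Im25 and CF Im59 siRNA share the alkaline scrambled library as their control. Intervals below cover counting error only, and reads copied by PCR are not independent molecules. All positions are on hg19, and no gene names are given because an annotation of that build was not used here. For the same reason the levels of the 3 targeted transcripts and of cell type markers were not analysed here.

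Most poly(A) sites of human genes lie in the last exon, and a gene with tandem sites there can make transcripts with a short or a long 3′ untranslated region. CF Im, mammalian cleavage factor I, is built from CF Im25 together with CF Im59 or CF Im68. CF Im25 binds UGUA elements upstream of many cleavage sites and CF Im68 is known to help recruit the rest of the 3′-end processing machinery. Loss of CF Im25 or CF Im68 is known for a move of cleavage towards proximal sites, which removes binding sites of microRNAs and RNA-binding proteins from the transcript.

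The sites of a pair lay a median of 499 nt apart (interquartile range 331 to 719 nt). The pairs were spread over both strands, with 577 on the plus and 619 on the minus strand. Chromosome 1 held 126 pairs, chromosome 17 held 83 and chromosome 2 held 74. The mean level of a pair over the 6 libraries had a median of 9.85 CPM, and the 90th percentile was 59.9 CPM. Units of a single site had a median of 2.2 CPM (18323 units), and 2-site units under 200 nt had a median of 16.2 CPM. In the pooled reads the distal site was the higher one in 691 pairs (57.8%) and the proximal site in 505 pairs (42.2%). The distal site held 90% or more of the reads of a pair in 144 pairs, and the proximal site in 65. A site lay close to the floor, under 1.1 CPM, in 132 pairs.

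The reads of a site were concentrated at 1 nucleotide. That nucleotide held a median of 62.4% of the pooled reads at proximal sites and 64.3% at distal sites, against 65.1% over all 49695 nuclear sites. In 340 pairs a site had 90% or more of its reads at a single nucleotide. Between the sites of a pair, reads on the same strand made up 0.686% to 0.805% of the reads at or between the sites in the alkaline libraries and 1.05% to 1.15% in the RNase I libraries. The choice of pairs keeps these values low, since a further site of 1 CPM or more between the sites would have excluded the unit. An opposite-strand site lay between the sites in 49 pairs (4.1%), and within 1000 nt beyond the distal site in 86 pairs (7.19%).

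The choice between the sites was measured as the proximal share, the percentage of the reads at both sites that lay at the proximal one. Pairs in which each site held 5% or more of the reads in the mean over libraries entered the comparisons, which left 1097 pairs. In the 99 pairs left out, the proximal site was the minor one in 63 and the distal site in 36. Counts limited the comparisons further, since a pair had a median of 171 reads in the no-siRNA library and 46 in the RNase I scrambled library. Of the 1097 pairs, 380 had 50 reads or more in every library.

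In these 380 pairs the median proximal share was 44.0% after CF Im25 siRNA, 28.6% after CF Im59 siRNA, 30.8% after scrambled siRNA with alkaline hydrolysis and 30.8% without siRNA. With RNase I it was 48.8% after CF Im68 siRNA and 31.2% after scrambled siRNA. The proximal site took more than 50% of the reads in 177 pairs after CF Im25 siRNA and in 146 after CF Im59 siRNA, against 144 in each alkaline control. The corresponding numbers were 187 after CF Im68 siRNA and 141 after scrambled siRNA with RNase I. The CF Im25 and CF Im68 libraries were high, and the CF Im59 library lay beside the controls. At the other end, a proximal share under 20% was seen in 121 pairs after CF Im25 siRNA and 147 after scrambled siRNA, and in 109 pairs after CF Im68 siRNA and 149 after scrambled siRNA with RNase I.

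**Figure D1:**
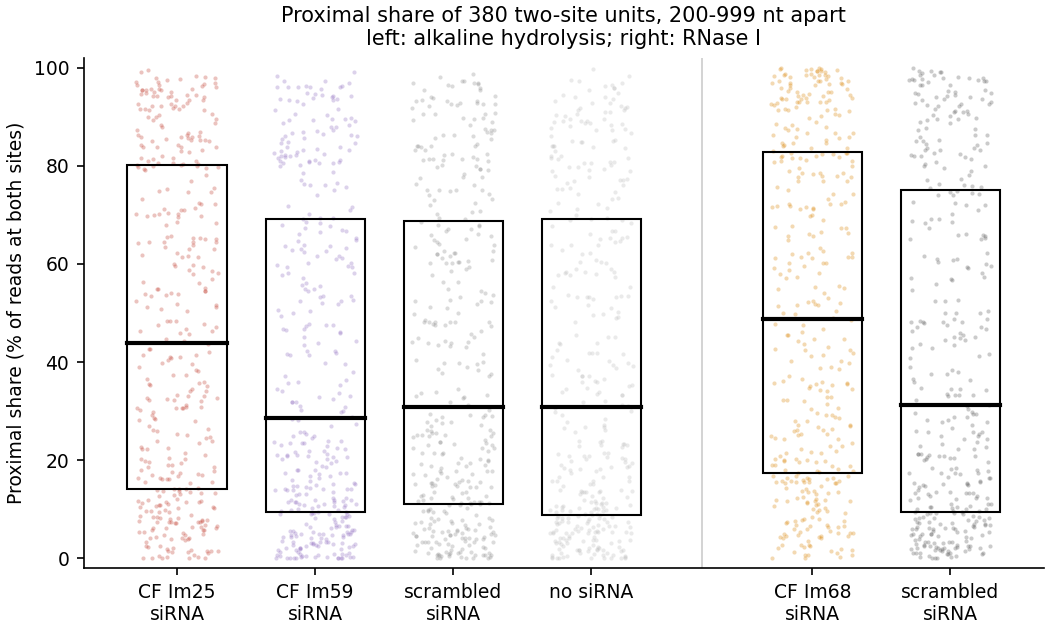
Proximal share (percent of the reads at both sites) of the 380 pairs with 50 reads or more in every library, by library. Points are pairs, boxes span the quartiles and thick lines are medians. The medians after CF Im25 (44.0%) and CF Im68 siRNA (48.8%) lie above those of the other 4 libraries (28.6% to 31.2%).

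A pair was called changed when its share differed by 20 percentage points or more, both libraries had 50 reads or more over the 2 sites, and 0 lay outside the 95% Newcombe interval of the difference. After CF Im25 siRNA, 99 of the 663 pairs that could be tested against scrambled siRNA had a higher proximal share (14.9%). Over all units of 2 or more sites, compared in the same way at their 2 most used sites, 18.3% were called higher. A lower share was called in 16 pairs (2.41%), where the figure over all units was 2.81%. The share of pairs called thus lay below that of all units in the proximal direction and near it in the distal direction. Among the pairs without a test, 99 had a minor site under 5% and 434 had too few reads. The median change over tested pairs was 4.26 points (all units 4.19), and 430 pairs (64.9%; all units 65.8%) were above 0. In 24 of the 663 pairs the rise was 40 points or more, beside 309 of 6702 over all units. Against the no-siRNA library, 122 of 749 pairs were called higher (16.3%; all units 20.4%) and 13 lower (1.74%; all units 1.96%). Of the 99 pairs, 98 were among these 749, and 72 of them were called higher there too. Of the 16 lower pairs, 5 were called lower against both controls. Those comparisons share the knockdown library and are not independent.

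After CF Im68 siRNA, 95 of 471 pairs had a higher proximal share than in the RNase I scrambled library (20.2%), beside 24.4% of all units. A lower share was called in 4 pairs (0.849%), beside 1.78% of all units. The median change was 4.14 points, 334 pairs (70.9%) were above 0, and 25 rose by 40 points or more. Here 626 pairs had too few reads for a test, in addition to the 99 with a minor site.

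After CF Im59 siRNA, 23 of 699 pairs had a higher share than in the alkaline scrambled library (3.29%), beside 2.53% of all units, and 20 had a lower one (2.86%), beside 4.76%. The median change was -0.315 points (all units -1.19). Against the no-siRNA library 15 of 800 pairs were higher (1.88%; all units 1.62%) and 21 were lower (2.62%; all units 2.08%). Only 5 of the 23 higher and 5 of the 20 lower pairs were called in the same direction against both controls. Scrambled siRNA itself, set against no siRNA, had 12 of 749 pairs higher (1.6%; all units 2.52%) and 10 lower (1.34%; all units 1.21%), with a median change of 0.715 points (all units 1.15). CF Im59 siRNA and the scrambled siRNA thus gave calls in both directions at a few percent of the pairs.

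The CF Im25 and CF Im59 libraries could be compared directly, as both were made by alkaline hydrolysis. CF Im25 siRNA had the higher share in 101 of 724 pairs (14%; all units 19.0%) and the lower share in 6 (0.829%; all units 1.09%). The median difference was 4.83 points (all units 5.38), and 535 pairs (73.9%; all units 74.6%) were above 0.

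**Figure D2:**
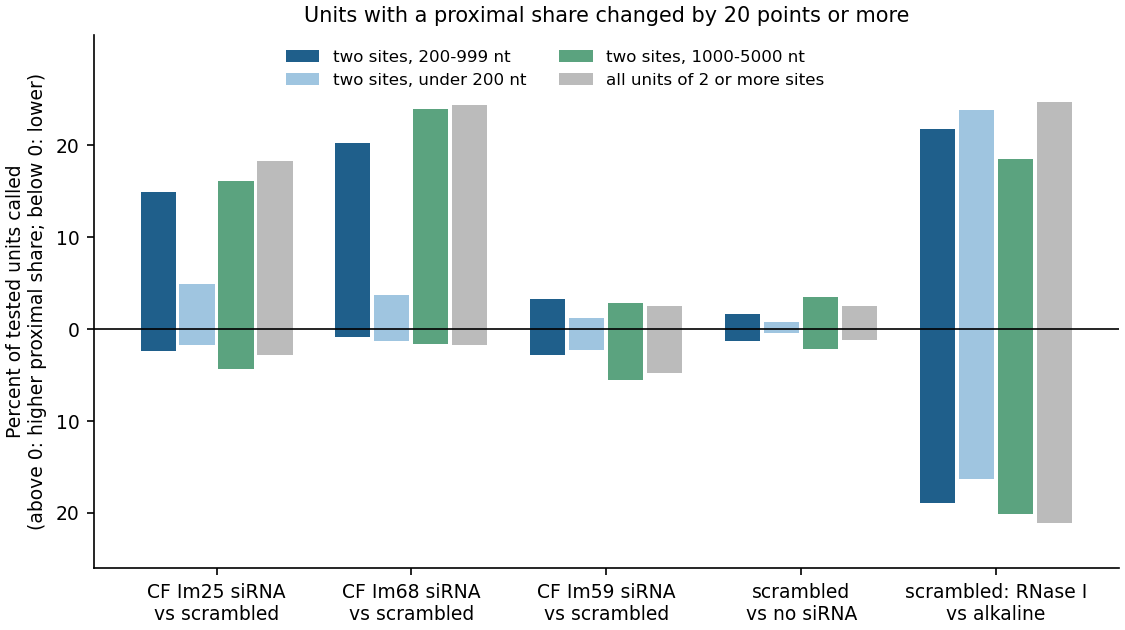
Percent of tested units whose proximal share rose (above 0) or fell (below 0) by 20 points or more, for 5 comparisons. Blue bars are the pairs 200 to 999 nt apart, pale blue and green bars the closer and wider 2-site units, and grey bars all units of 2 or more sites. After CF Im25 and CF Im68 siRNA the blue bars (14.9% and 20.2%) are far above the pale blue ones (4.94% and 3.66%) and a little under the green and grey ones; the 2 scrambled libraries differ in both directions.

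The share of units called differed between distance classes. With under 200 nt between the sites, 31 of 627 units were called higher after CF Im25 siRNA (4.94%) and 19 of 519 after CF Im68 siRNA (3.66%). At 1000 to 5000 nt the counts were 194 of 1207 (16.1%) and 187 of 781 (23.9%). These differences between classes were not tested, since the units of a class share the same pair of libraries, and the classes differ in level as given above. Within the pairs, the share called higher after CF Im25 siRNA was 11.6% at 200 to 299 nt, 13.7% at 300 to 399 nt, 14.5% at 400 to 599 nt, 15.5% at 600 to 799 nt and 19.3% at 800 to 999 nt. Against no siRNA the same bins gave 14.3%, 15.7%, 16.1%, 15.6% and 19.9%. After CF Im68 siRNA they gave 13.3%, 17.1%, 19.8%, 26.5% and 22.8%. Each bin held between 82 and 192 tested pairs in these comparisons, and the widest pairs were called more often than the closest in all of them. For CF Im59 siRNA the bins ran between 2.21% and 4.88%, and for scrambled siRNA between 0.758% and 2.99%.

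**Figure D3:**
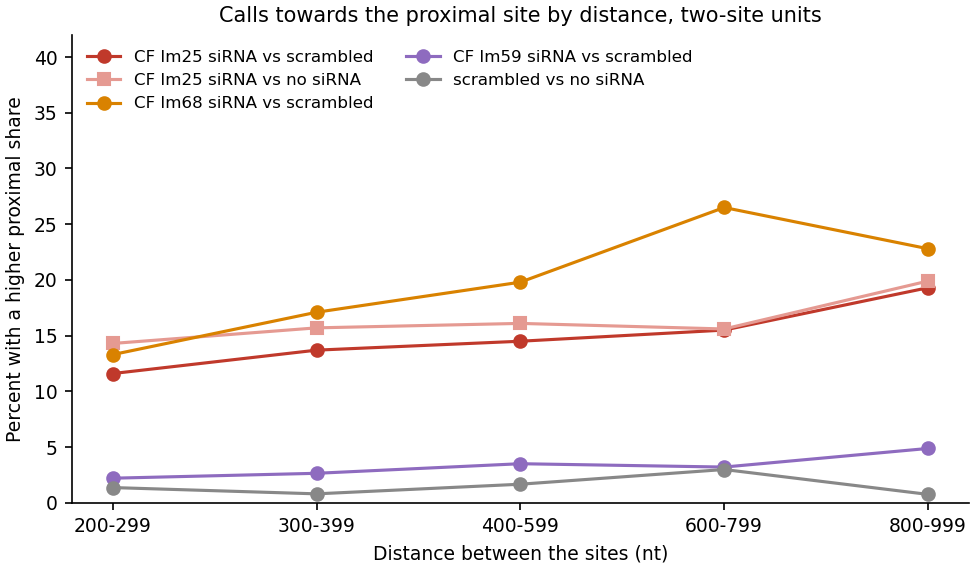
Percent of tested pairs called with a higher proximal share, by the distance between the sites in nt. Lines join 5 distance bins for each comparison. The CF Im25 lines end at 19.3% and 19.9%, the CF Im68 line is highest at 600 to 799 nt (26.5%), and the CF Im59 and scrambled lines stay under 5%.

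At the edges of the distance class the numbers were small. Just outside, at 180 to 199 nt, 6 of 40 units were called higher after CF Im25 siRNA and 1 of 27 after CF Im68 siRNA, and just inside, at 200 to 219 nt, 3 of 31 and 2 of 20. At the upper edge, 4 of 13 and 4 of 11 were called higher at 980 to 999 nt inside, and 1 of 12 and 3 of 10 at 1000 to 1019 nt outside.

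The share of pairs called also differed with the proximal share in a library outside the comparison. With the pairs ordered by proximal share without siRNA, a library which the CF Im25 comparison does not use, the share called higher after CF Im25 siRNA was 13.7% below a proximal share of 20%, 28.5% between 20% and 50%, 13.8% between 50% and 80%, and 0.909% (1 of 110 pairs) above 80%. Ordered by the alkaline scrambled library, which the CF Im68 comparison does not use, the same classes gave 27.2%, 22.3%, 12.0% and 6.85% after CF Im68 siRNA. The alkaline share is not the share in the RNase I scrambled library, which is the control there. Of the 73 tested pairs above 80% in the alkaline library, 5 were called higher, which a control share above 80% would not allow. Calls were fewest above 80% in both knockdowns. A share above 80% in the control of the comparison cannot rise by 20 points, so the call rule limits the calls there. Of the 663 pairs tested after CF Im25 siRNA, 112 had such a share after scrambled siRNA, and none of these was called higher. The rest of the differences between classes was not tested, and the classes were not counted over all units. By level, the share called higher after CF Im25 siRNA was 18.1% under 10 CPM, 11.9% at 10 to 20 CPM, 17.0% at 20 to 50 CPM and 10.7% at 50 CPM or more, with no steady order. After CF Im68 siRNA it was 26.4%, 18.7%, 19.1% and 17.8% in the same bins.

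In many of the called pairs the main site changed. Such changes were not counted over all units, so the numbers do not set the pairs apart from other units. After CF Im25 siRNA 70 of 663 tested pairs moved their main site from distal to proximal and 15 the other way, and after CF Im68 siRNA 61 of 471 and 7. After CF Im59 siRNA the numbers were 30 and 20 of 699 pairs. In the scrambled library against no siRNA they were 19 and 34 of 749. Among the 99 pairs called higher after CF Im25 siRNA, 54 changed their main site, and the median share was 62.5% after CF Im25 siRNA against 24.2% after scrambled siRNA. Among the 95 called after CF Im68 siRNA, 46 did, with medians of 62.3% after CF Im68 siRNA and 25.0% after scrambled siRNA.

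Most of the pairs called higher both gained proximal reads and lost distal reads. Site reads were divided by all reads in nuclear units of the library, with 0.5 read added. For the 99 pairs called after CF Im25 siRNA the median log2 change was 1.18 at the proximal site, -1.02 at the distal site and -0.08 for the total. The proximal site was up and the distal site down in 78 of them, 13 gained proximal reads without a distal loss, and 8 lost distal reads without a proximal gain. In the 95 pairs called after CF Im68 siRNA the medians were 1.36 at the proximal site, -1.15 at the distal site and -0.32 for the total, and 81 had both changes. These directions follow largely from the call on the share, which used the same reads, and they were not counted over all units.

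The pairs with the largest rises after CF Im25 siRNA, among those called against both controls with 100 reads or more, lay on chromosomes 3, 13, 4 and 17. The pair on chromosome 3, minus strand, with its proximal site at 125166490 and its distal site at 125165501 (989 nt apart) had 185 of 287 reads at the proximal site after CF Im25 siRNA (64.5%), 37 of 320 after CF Im59 siRNA (11.6%), 5 of 207 after scrambled siRNA (2.42%) and 42 of 559 without siRNA (7.51%). With RNase I the share was 15.4% of 319 reads after CF Im68 siRNA and 0.448% of 223 reads after scrambled siRNA. The site was almost unused in both scrambled libraries and was the main site in the CF Im25 library alone, a rise of 62.0 points over scrambled siRNA (95% interval 55.6 to 67.5). Its total was 29.7 CPM after CF Im25 siRNA and 23.8 CPM after scrambled siRNA (1.24-fold, 1.04 to 1.5). Here and below, CPM of a single pair is per 1e6 reads in nuclear units.

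On chromosome 13, plus strand (73329587 and 73330333, 746 nt), the share was 69.4% of 111 reads after CF Im25 siRNA, 32.7% of 156 reads after CF Im59 siRNA, 12.9% of 147 reads after scrambled siRNA and 28.4% of 268 reads without siRNA. The rise was 56.4 points over scrambled siRNA (45.3 to 65.5) and 41.0 points over no siRNA. The controls of this pair differed from each other by -15.4 points (scrambled minus no siRNA), and the size of the rise depends on which is used.

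The pair on chromosome 3, minus strand, at 32568248 and 32567479 (769 nt) had a share of 83.9% after CF Im25 siRNA (187 of 223 reads), 46.7% after CF Im59 siRNA, 27.7% after scrambled siRNA (182 of 658 reads) and 35.2% without siRNA. In the RNase I libraries it was 51.5% of 97 reads after CF Im68 siRNA and 15.2% of 66 reads after scrambled siRNA. The change after CF Im25 siRNA was 56.2 points (49.7 to 61.6). Here the level of the pair also fell, to 23.1 CPM after CF Im25 siRNA against 75.8 CPM after scrambled siRNA, and nearly all of the loss was at the distal site, which had 3.72 CPM after CF Im25 siRNA and 54.8 CPM after scrambled siRNA. The proximal site had 19.3 CPM after CF Im25 siRNA and 21.0 CPM after scrambled siRNA.

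A pair on chromosome 4, plus strand (144474548 and 144475523, 975 nt), was called higher after all 3 siRNAs. Its share was 79.8% after CF Im25 siRNA (182 of 228 reads), 61.3% after CF Im59 siRNA (190 of 310), 24.2% after scrambled siRNA (36 of 149) and 18.8% without siRNA (45 of 240). With RNase I it was 55.6% after CF Im68 siRNA (190 of 342) and 34.7% after scrambled siRNA (110 of 317). All 3 knockdown libraries lay above all 3 controls. The rises were 55.7 points (46.3 to 63.4) after CF Im25 siRNA, 37.1 points (27.8 to 45.2) after CF Im59 siRNA and 20.9 points (13.3 to 28.1) after CF Im68 siRNA.

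The fifth pair, on chromosome 17, plus strand (14208823 and 14209062), had sites only 239 nt apart. Its share was 58.6% of 191 reads after CF Im25 siRNA and 35.6% of 101 reads after CF Im59 siRNA, against 10.8% of 102 reads after scrambled siRNA and 10.2% of 147 reads without siRNA. The rise was 47.9 points after CF Im25 siRNA (37.5 to 56.1) and 24.9 points after CF Im59 siRNA (13.4 to 35.6), and the controls were alike.

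Only 2 pairs fell after CF Im25 siRNA under the same conditions. On chromosome 16, minus strand (4561325 and 4560708, 617 nt), the share was 51.2% after CF Im25 siRNA (173 of 338 reads) and 70.2% after CF Im59 siRNA (295 of 420), against 86.8% after scrambled siRNA (537 of 619) and 86.2% without siRNA (1422 of 1650). With RNase I the share was 58.8% after CF Im68 siRNA and 58.2% after scrambled siRNA, a difference of 0.599 points (-8.1 to 9.45). The change after CF Im25 siRNA was -35.6 points (-41.4 to -29.5), the level was 2.04-fold lower (1.78 to 2.34), and an opposite-strand site lay within 1000 nt beyond its distal site. The scrambled libraries themselves differed by -28.5 points (RNase I minus alkaline).

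The other, on chromosome 11, minus strand (9302718 and 9302204, 514 nt), was the single pair called lower after both CF Im25 and CF Im68 siRNA. It had a share of 48.4% after CF Im25 siRNA (231 of 477 reads), 71.0% after CF Im59 siRNA, 72.5% after scrambled siRNA (308 of 425) and 73.3% without siRNA (503 of 686). With RNase I the share was 4.52% after CF Im68 siRNA (14 of 310 reads) and 36.4% after scrambled siRNA (56 of 154). The changes were -24.0 points (-30.1 to -17.7) after CF Im25 siRNA and -31.8 points (-39.9 to -24.1) after CF Im68 siRNA, and the total after CF Im25 siRNA was 49.3 CPM against 49.0 CPM after scrambled siRNA.

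After CF Im68 siRNA the pair on chromosome 13, minus strand (33091759 and 33091031, 728 nt), had 131 of 134 reads at its proximal site (97.8%), against 37 of 110 after scrambled siRNA with RNase I (33.6%). The rise was 64.1 points (54.0 to 72.4). In the alkaline libraries its share was 79.1% of 43 reads after CF Im25 siRNA, 17.8% of 107 reads after CF Im59 siRNA, 22.0% of 50 reads after scrambled siRNA and 24.4% of 135 reads without siRNA. The CF Im25 library was thus high as well, but had too few reads to be tested.

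On chromosome 3, minus strand (125248371 and 125247704, 667 nt), the share was 62.3% after CF Im68 siRNA (132 of 212 reads) and 7.69% after scrambled siRNA with RNase I (10 of 130), a rise of 54.6 points (45.7 to 61.7). The alkaline shares were 26.4% after CF Im25 siRNA, 4.35% after CF Im59 siRNA, 8.0% after scrambled siRNA and 5.33% without siRNA. The 18.4 points of CF Im25 siRNA over scrambled siRNA fell short of a call, and the 21.0 points over no siRNA did not.

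On chromosome 8, minus strand (62413789 and 62413116, 673 nt), the share was 73.2% of 194 reads after CF Im68 siRNA and 20.9% of 153 reads after scrambled siRNA with RNase I (52.3 points, 42.5 to 60.4). CF Im25 and CF Im59 siRNA differed in direction from scrambled siRNA at this pair, with shares of 62.3% of 1222 reads after CF Im25 siRNA and 32.9% of 1411 reads after CF Im59 siRNA, against 47.7% of 556 reads after scrambled siRNA and 43.7% of 1301 reads without siRNA. The 14.6 points of CF Im25 siRNA and the -14.8 points of CF Im59 siRNA were both under 20 points, while CF Im25 minus CF Im59 siRNA was 29.4 points (25.7 to 33).

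The pair on chromosome 5, minus strand (43445432 and 43444781, 651 nt), rose by 43.8 points after CF Im68 siRNA (33.1 to 53.1), with 74.3% of 226 reads after CF Im68 siRNA and 30.5% of 118 reads after scrambled siRNA. Its alkaline shares lay between 14.1% and 27.0%, and CF Im25 siRNA differed from scrambled siRNA by 7.65 points (-4.02 to 20.2).

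Besides the chromosome 11 pair, the pairs with the largest falls after CF Im68 siRNA lay on chromosomes 19 and 4. On chromosome 19, minus strand (16661668 and 16660766, 902 nt), the share was 50.4% of 343 reads after CF Im68 siRNA and 73.5% of 136 reads after scrambled siRNA (-23.1 points, -31.6 to -13.5). With every library thinned to the depth of the smallest, the change was -10.9 points, under the size that was called. On chromosome 4, plus strand (141303036 and 141303705, 669 nt), the share was 28.5% of 235 reads after CF Im68 siRNA and 50% of 134 reads after scrambled siRNA (-21.5 points, -31.4 to -11.2). In the alkaline libraries that proximal site took 1.23% of the reads after CF Im25 siRNA, 5.34% after CF Im59 siRNA, 5.38% after scrambled siRNA and 6.63% without siRNA, so that the site was minor with alkaline hydrolysis and took 50% with RNase I in scrambled cells.

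CF Im25 and CF Im68 siRNA were compared over pairs tested in both, which share no library. Of 387 such pairs, CF Im25 siRNA gave 57 with a higher share and CF Im68 siRNA gave 74. The 26 called in both were 45.6% of the first list and 35.1% of the second, and over all units the shares were 59% and 42.7%. No pair was called in opposite directions (3 of 4815 over all units), and of 8 and 2 called lower 1 was in both (19 of 100 and 83 over all units). The pairs called after CF Im25 siRNA changed by a median of 14.9 points after CF Im68 siRNA, against 4.32 points over all 387 pairs, and 54 of the 57 were above 0. Over all units the called ones changed by a median of 26.4 points, against 5.56 points, and 823 of 858 were above 0. The pairs called after CF Im68 siRNA changed by a median of 11.7 points after CF Im25 siRNA, against 4.04 points, and 65 of the 74 were above 0. Over all units this median was 15.8 points, against 4.0 points, and 1076 of 1186 were above 0. Both medians of called pairs thus lay below those of all units. CF Im59 siRNA was set against no siRNA for the same purpose. Of 421 pairs tested in both, 8 were higher after CF Im59 siRNA and 85 after CF Im68 siRNA, and the 2 in both were 25.0% and 2.35% of these lists, against 19.6% and 0.815% over all units. A further 2 of these 421 pairs were called in opposite directions, against 15 of 4998 over all units.

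**Figure D4:**
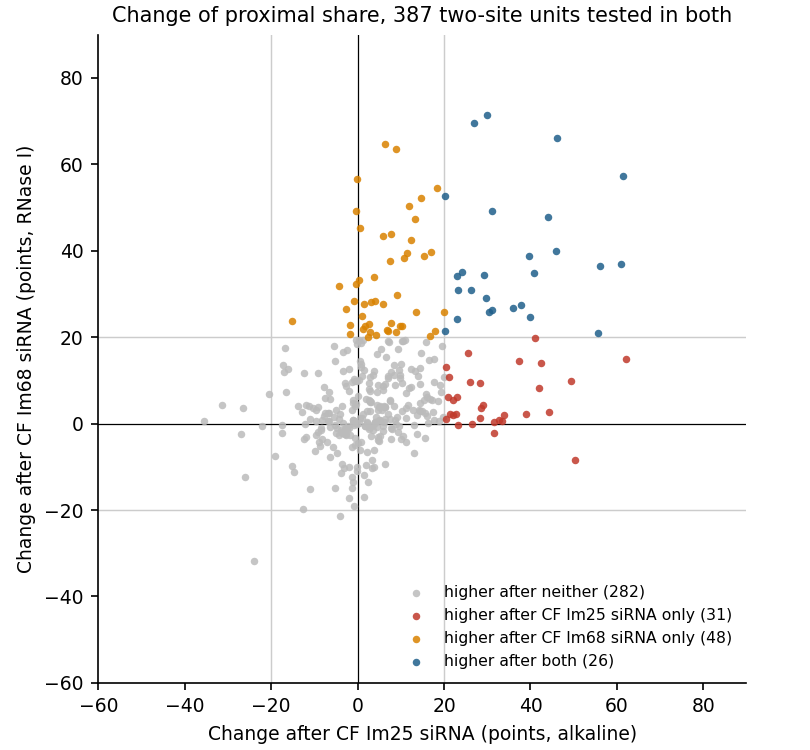
Change of the proximal share in points after CF Im25 siRNA (x axis, alkaline libraries) and CF Im68 siRNA (y axis, RNase I libraries) for the 387 pairs tested in both. Each point is a pair, grey lines mark 20 points in either direction, and colours give the calls. The 26 pairs called higher in both (blue) fill the upper right, and no pair is called higher in one comparison and lower in the other (3 of 4815 over all units).

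The 5 pairs with the largest rise in both knockdowns, ranked by the smaller of the 2 changes, were on chromosomes 18, 7 and 4. On chromosome 18, minus strand (2538138 and 2537535, 603 nt), the share was 74.7% of 95 reads after CF Im25 siRNA and 29.9% of 157 reads after CF Im59 siRNA, against 13.4% of 142 reads after scrambled siRNA and 18.5% of 319 reads without siRNA. With RNase I the share was 62.3% of 77 reads after CF Im68 siRNA and 4.94% of 81 reads after scrambled siRNA. It rose by 61.4 points (49.7 to 70.3) after CF Im25 siRNA and by 57.4 points (44.2 to 67.8) after CF Im68 siRNA, and the CF Im59 library was between the other knockdowns and the controls.

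On chromosome 7, plus strand (152552065 and 152552464, 399 nt), the share was 93.5% of 107 reads after CF Im25 siRNA, 66.7% of 123 reads after CF Im59 siRNA, 47.4% of 133 reads after scrambled siRNA and 49.2% of 130 reads without siRNA. In the RNase I libraries it was 72.2% of 97 reads after CF Im68 siRNA and 6.03% of 116 reads after scrambled siRNA. It rose by 46.1 points (35.5 to 55.0) after CF Im25 siRNA and by 66.1 points (54.8 to 74.7) after CF Im68 siRNA, but the scrambled libraries were far apart, at 6.03% with RNase I and 47.4% with alkaline hydrolysis.

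The other pairs of this group lay on chromosome 4. The pair on the minus strand at 76871779 and 76871073 (706 nt) had 64.4% of 410 reads after CF Im25 siRNA and 20.3% of 300 reads after scrambled siRNA, and 75.6% of 496 reads after CF Im68 siRNA and 27.8% of 108 reads after scrambled siRNA with RNase I. Its CF Im59 library had 28.2% of 241 reads and its no-siRNA library 10.7% of 429 reads. The rises were 44.1 points (37.2 to 50.2) after CF Im25 siRNA and 47.8 points (37.9 to 56.2) after CF Im68 siRNA, and by its CF Im68 change alone the pair also ranked among the top 5.

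The pair on the plus strand at 164440708 and 164441685 (977 nt) had a proximal share of 59.4% of 138 reads after CF Im25 siRNA, 9.95% of 211 reads after CF Im59 siRNA, 13.6% of 140 reads after scrambled siRNA and 11.4% of 298 reads without siRNA. With RNase I it was 97.3% of 1026 reads after CF Im68 siRNA and 57.2% of 173 reads after scrambled siRNA. It rose by 45.8 points (35.2 to 55.0) after CF Im25 siRNA and by 40 points (32.8 to 47.5) after CF Im68 siRNA. Its proximal site had 91.1 CPM after CF Im68 siRNA and 21.1 CPM after scrambled siRNA, and the total was 2.54-fold higher (2.16 to 3.0).

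The pair on the plus strand at 184634017 and 184634741 (724 nt) had 56.9% of 425 reads after CF Im25 siRNA, 18.1% of 332 reads after CF Im59 siRNA, 17.3% of 271 reads after scrambled siRNA and 17.5% of 492 reads without siRNA. In the RNase I libraries it had 86.8% of 310 reads after CF Im68 siRNA and 48.1% of 52 reads after scrambled siRNA. It rose by 39.6 points (32.7 to 45.7) after CF Im25 siRNA and by 38.7 points (24.8 to 52.1) after CF Im68 siRNA. In these last 2 pairs on the plus strand the CF Im59 library lay at the level of both alkaline controls.

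**Figure D5:**
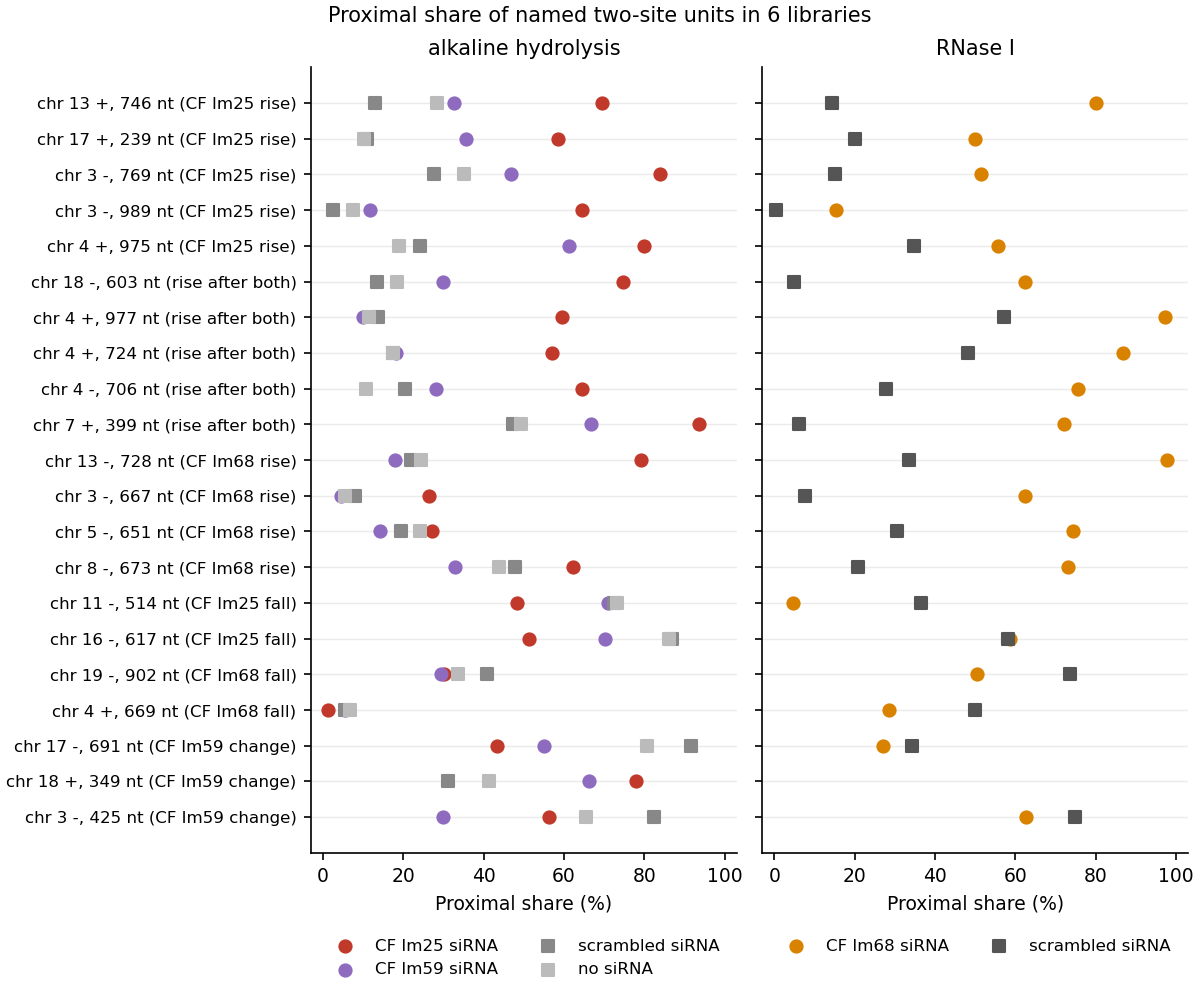
Proximal share (percent) of 21 named pairs in the alkaline (left) and RNase I (right) libraries, for libraries with 15 reads or more. Circles are knockdown libraries and squares controls, and rows name the chromosome, strand, distance in nt and the comparison that chose the pair. At the 10 upper rows the CF Im25 circle lies to the right of every square of its panel, at 56.9% to 93.5%.

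For CF Im59 siRNA, 4 pairs called against both alkaline controls were named. Besides the chromosome 4 pair at 144474548, the pair on chromosome 18, plus strand (74681872 and 74682221, 349 nt), had 66.1% of 56 reads after CF Im59 siRNA against 31.0% of 58 reads after scrambled siRNA and 41.2% of 85 reads without siRNA (35 points over scrambled siRNA, 16.8 to 50.2). The CF Im25 library had 78.0% of 41 reads at this pair.

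The falls after CF Im59 siRNA were on chromosomes 3 and 17. On chromosome 3, minus strand (133376650 and 133376225, 425 nt), the share was 29.9% of 97 reads after CF Im59 siRNA, against 82.5% of 57 reads after scrambled siRNA and 65.4% of 78 reads without siRNA (-52.6 points from scrambled siRNA, -63.8 to -37.2). The CF Im25 share of 56.3% lay between them. On chromosome 17, minus strand (58511709 and 58511018, 691 nt), it was 55.0% of 60 reads after CF Im59 siRNA, against 91.7% of 72 reads after scrambled siRNA and 80.6% of 93 reads without siRNA (-36.7 points, -49.9 to -21.9). The CF Im25 library was lower still, with 43.2% of 37 reads, too few to be tested. The proximal site of that pair had 99.7% of its pooled reads at 1 nucleotide, and its share with RNase I was 27.0% after CF Im68 siRNA and 34.2% after scrambled siRNA.

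Single pairs also moved far between the alkaline controls. On chromosome 14, minus strand (30046153 and 30045705, 448 nt), the share was 83.3% of 54 reads after scrambled siRNA and 33.3% of 93 reads without siRNA (50 points, 34.3 to 61.6). On chromosome 17, plus strand (47023124 and 47024115, 991 nt), it was 31.6% of 95 reads after scrambled siRNA and 71.4% of 269 reads without siRNA (-39.8 points, -49.7 to -28.4). At the second pair CF Im25 siRNA, with 72.5% of 69 reads, was called higher than scrambled siRNA and differed from no siRNA by 1.09 points. Both show changes past the call size in a comparison without a knockdown.

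The 2 scrambled libraries stood further apart than any knockdown and its control. They differ in fragmentation, and whether they come from 1 culture is not given in the sources used here, so fragmentation, culture and library cannot be told apart. Scrambled siRNA with RNase I, set against scrambled siRNA with alkaline hydrolysis, had a higher share in 90 of 412 pairs (21.8%; all units 24.7%) and a lower share in 78 (18.9%; all units 21.1%). The median size of a change was 15.5 points, against 8.04 points for CF Im25 siRNA, 7.41 points for CF Im68 siRNA and 4.35 points for scrambled siRNA over no siRNA. The median signed change was 1.13 points. In this comparison the directions were nearly balanced, whereas the knockdowns of CF Im25 and CF Im68 gave calls mostly towards the proximal site.

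The pairs at the extremes of this comparison were picked after their values were seen. On chromosome 13, minus strand (77619167 and 77618810, 357 nt), the proximal site took 87.3% of 63 reads with RNase I and 0.725% of 138 reads with alkaline hydrolysis, both after scrambled siRNA. The CF Im68 library, also RNase I, had 88.6% of 114 reads, and the other alkaline libraries had at most 1.18%. On chromosome 3, plus strand (17131603 and 17132087, 484 nt), the share was 10.7% of 75 reads with RNase I and 94.3% of 88 reads with alkaline hydrolysis, with 29.3% of 232 reads in the CF Im68 library and 85.5% to 95% in the other alkaline libraries. Every change of a knockdown was taken within a fragmentation. Where shares of single pairs are set side by side over all 6 libraries, CF Im68 siRNA cannot be told apart from RNase I against the alkaline libraries.

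Read ends were also spread more widely in the RNase I libraries. Over 160 proximal sites, the peak nucleotide held a median of 55.8% of the reads after CF Im68 siRNA and 56.6% after scrambled siRNA with RNase I. In the alkaline libraries it held 63.4% after CF Im25 siRNA, 64.6% after CF Im59 siRNA, 65.3% after scrambled siRNA and 64.6% without siRNA. Over 247 distal sites the medians were 52.1% in both RNase I libraries and between 61.6% and 63.5% in the alkaline ones. Within a fragmentation the libraries differed by 2 points or less.

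Totals of a pair were compared after the same scaling, and a pair was called at a 2-fold difference with 50 reads or more in 1 library and 1 outside the exact 95% interval of the ratio. In bulk samples, fewer cells and less RNA per cell cannot be told apart. After CF Im25 siRNA 105 of 972 pairs had higher totals (10.8%; all units 13.1%) and 120 had lower ones (12.3%; all units 12.1%). After CF Im59 siRNA the counts were 56 of 976 higher (5.74%; all units 8.61%) and 104 lower (10.7%; all units 11.1%). Pairs with lower totals were the larger group after CF Im59 siRNA, among the pairs and among all units. After CF Im68 siRNA the counts were 79 of 848 higher (9.32%; all units 11.2%) and 70 lower (8.25%; all units 6.96%), which became 106 higher and 51 lower with TMM scaling, and 45 higher and 55 lower among pairs with both sites at 1 CPM over the 4 libraries not compared. Scrambled siRNA over no siRNA gave 37 of 1052 higher (3.52%; all units 4.3%) and 35 lower (3.33%; all units 4.29%), and 26 higher and 47 lower with TMM scaling. TMM scaling moved the log2 ratio of every unit by 0.18 in the CF Im68 comparison, -0.11 in the scrambled comparison, 0.1 in the CF Im59 comparison and 0.01 in the CF Im25 comparison. The median log2 ratio of the pairs stayed within 0.1 of that of all units in each comparison, at -0.02 after CF Im25 siRNA, -0.15 after CF Im59 siRNA, 0.05 after CF Im68 siRNA and 0.07 after scrambled siRNA.

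Most pairs with a higher proximal share had no called change of total, as was so for most pairs. Of the 99 pairs with a higher proximal share after CF Im25 siRNA, 9 had a higher total (9.09%; all pairs 10.8%) and 11 a lower one (11.1%; all pairs 12.3%). Of the 95 pairs after CF Im68 siRNA, 11 had a higher total (11.6%; all pairs 9.32%) and 15 a lower one (15.8%; all pairs 8.25%).

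The largest rise in total after CF Im25 siRNA was on chromosome 12, minus strand (46591425 and 46590747, 678 nt), with 238 reads after CF Im25 siRNA and 25 after CF Im59 siRNA, against 5 after scrambled siRNA and 36 without siRNA. It was 42.7-fold over scrambled siRNA (18.1 to 133), and 11.3-fold over no siRNA (7.94 to 16.5). The CF Im25 library brought this pair over the site floor: without it, the means were 0.944 CPM at the proximal and 0.867 CPM at the distal site, so the choice of pairs favoured this rise. Its proximal share was 79.8% after CF Im25 siRNA, 76.0% after CF Im59 siRNA and 72.2% without siRNA, which were alike. With RNase I it was lower, at 28.9% of 45 reads after CF Im68 siRNA and 33.3% of 6 reads after scrambled siRNA. The total there was 3.21-fold higher after CF Im68 siRNA (1.36 to 9.2), with too few reads for a call. The largest fall, on chromosome 7, minus strand (13933802 and 13932897, 905 nt), had 9 reads after CF Im25 siRNA and 20 after CF Im59 siRNA, against 379 after scrambled siRNA and 170 without siRNA. It was 46.9-fold lower after CF Im25 siRNA than after scrambled siRNA (24.5 to 103) and 11.0-fold lower than without siRNA (5.68 to 24.6). The controls differed too, scrambled siRNA being 4.25-fold over no siRNA (3.54 to 5.12). With RNase I it had 19 reads after CF Im68 siRNA and 90 after scrambled siRNA, an 11.1-fold lower total (6.7 to 19.2). This pair was low in all 3 knockdown libraries and high in all 3 controls.

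After CF Im68 siRNA the largest rise in total was on chromosome 15, plus strand (52100934 and 52101508, 574 nt), with 140 reads after CF Im68 siRNA against 4 after scrambled siRNA with RNase I, a 15-fold difference (5.72 to 55.7). Its proximal site passed the floor through the CF Im68 library, since the other 5 averaged 0.796 CPM, so the choice of pairs favoured this rise. The same pair had 159 reads after CF Im25 siRNA, 51 after CF Im59 siRNA, 25 after scrambled siRNA and 24 without siRNA. It was 5.71-fold higher after CF Im25 siRNA than after scrambled siRNA (3.73 to 9.09). The largest fall was on chromosome 11, plus strand (12965450 and 12966278, 828 nt), with 56 reads after CF Im68 siRNA against 149 after scrambled siRNA with RNase I, 6.22-fold lower (4.55 to 8.61). It had between 12 and 38 reads in the alkaline libraries, at 1.24 to 2.3 CPM. Its proximal site passed the floor through the RNase I scrambled library, the other 5 averaging 0.155 CPM, so the choice of pairs favoured this fall as well.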

How the data were processed

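A-seq read ends were analysed in 6 libraries of HEK293 cells, 1 a group. The deposited files hold counts: the authors gave, for each nucleotide and strand, the whole number of reads ending there, unscaled and 1 library a file. Reads were mapped to hg19 (GRCh37), per the submitters' processing notes. The aligner, the read filters and whether duplicates or internally primed reads were removed: not given in the sources used here. Read ends primed within A-rich stretches would appear as sites.

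Sites, units and pairs were made as the opening describes, with Python 3.11.15, numpy 2.4.6, pandas 2.3.3, scipy 1.17.1 and numba 0.67.0. The call rules were applied to all units, with pairs of other units taken at their 2 most used sites. Intervals are Newcombe's for differences of shares and exact for ratios, at 95%. The call rule for shares was tested on simulated counts with known changes. TMM factors came from edgeR 4.0.16 in R 4.3.3. No gene-wise test was run, since each group holds 1 library.

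The pairs and rules were chosen with earlier results of these data known. Pairs were named by rank of change among called pairs with 100 reads or more in each library for CF Im25 (called against both controls) and CF Im68 siRNA: 5 rises and 3 falls each, or as many as there were, and 5 rises in both, by the smaller change. For CF Im59 siRNA, 2 rises and 2 falls called against both controls were named, for scrambled siRNA 1 of each, and for totals 1 of each after CF Im25 and CF Im68 siRNA. Alternatives varied the control library, read minimum, size of change, minimum share, site width, site floor, unit gap, depth and scaling, and left out sites concentrated at 1 nucleotide.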

Additional observations from a re-analysis of the deposited data

Results flagged for a closer look

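Reads upstream of the pairs, outside any called site of the pair, were more frequent in 2 knockdown libraries than in their controls. In the 500 nt upstream of the proximal sites they came to 0.752% of the reads at the sites after CF Im25 siRNA and 0.491% after CF Im59 siRNA, against 0.492% after scrambled siRNA and 0.488% without siRNA. With RNase I they came to 1.12% after CF Im68 siRNA and 0.683% after scrambled siRNA. Among pairs with 10 such reads or more over the libraries compared, the share was higher after CF Im25 siRNA than after scrambled siRNA in 116 of 183 and higher after CF Im68 siRNA in 181 of 243, and for CF Im59 siRNA it was higher in 75 of 152. This minimum was set on unscaled reads of both libraries together, which favours pairs that are high in the deeper library. The CF Im68 library had 517076 reads at the sites and its control 220200, so the filter favoured the 181 of 243. In the CF Im25 comparison the numbers were 420452 and 422326. Without the 10 pairs that held most of the upstream reads, a choice made after seeing the data, the values were 0.718% after CF Im25 siRNA and 0.468% after scrambled siRNA, and 1.07% after CF Im68 siRNA and 0.613% after scrambled siRNA with RNase I. In the 500 nt downstream of the distal sites they were 0.286% after CF Im25 siRNA and 0.372% after scrambled siRNA, and 0.261% after CF Im68 siRNA and 0.393% after scrambled siRNA with RNase I.

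A pair on chromosome 5, plus strand (147822125 and 147822400), was called in opposite directions after CF Im59 and CF Im68 siRNA, by -26.2 points and 38.8 points over the scrambled library of each fragmentation. Its proximal share was 22.0% of 82 reads after CF Im59 siRNA and 63.6% of 107 reads after CF Im25 siRNA, against 48.1% of 106 reads after scrambled siRNA and 51.0% of 153 reads without siRNA. With RNase I it was 87.6% of 291 reads after CF Im68 siRNA and 48.8% of 86 reads after scrambled siRNA. The difference between the 2 changes was not tested.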

How the results depend on the processing

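No paired analysis was possible because each group holds 1 library. For the same reason no library was left out. Of 186 recomputed counts and medians, 123 stayed within the limits set (1.5 times for a count). Calls are given as higher and lower proximal share.

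With a minimum of 20 reads the counts were 153 and 40 for CF Im25, 39 and 56 for CF Im59, 179 and 13 for CF Im68, and 39 and 24 for scrambled siRNA over no siRNA. With 100 reads they were 54 and 2, 14 and 2, and 37 higher for CF Im68 (median change 3.07 points), and 2 and 2 for scrambled siRNA. At 10 points they were 207 and 47, 60 and 76, 156 and 22, and 64 and 49, and at 30 points 52 and 4, 5 and 6, 48 and 2, and 2 and 5, in the same order. Thinning every library to the depth of the smallest gave 57 and 2, 9 and 7, 2 lower for CF Im68, and 4 and 5 for scrambled siRNA. With both sites at 2 CPM, the lower counts were 9 for CF Im25 and 12 for CF Im59, and scrambled siRNA gave 5 and 4. A unit gap of 2000 nt gave 28, 34 and 11 lower for CF Im25, CF Im59 and CF Im68, and 21 and 22 for scrambled siRNA, and a gap of 10000 nt gave 13 and 2 lower for CF Im59 and CF Im68. Without sites of 90% at 1 nucleotide, 13 were lower for CF Im59 and 5 for scrambled siRNA, and the CF Im25 median change was 5.82 points. With no minimum share the medians were 3.07 points for CF Im25 and 2.99 for CF Im68. Against no siRNA, CF Im59 had 15 higher and a median of 0.0773 points, where the sign differed from that against scrambled siRNA. For totals, thinning gave 32 higher for CF Im59, 51 higher for CF Im68 and 18 lower for scrambled siRNA, and a minimum of 20 reads gave 127 lower for CF Im68. With both sites held to 1 CPM over the 4 libraries not compared, chosen after seeing the data, CF Im68 had 2 lower shares and 45 higher totals, and the other 14 counts stayed within the limits. The larger direction turned for CF Im59 shares with 20 reads, at 10 and 30 points, with a gap of 2000 nt (31 higher, 34 lower) and against no siRNA (15 and 21), in several settings for scrambled siRNA, and for CF Im68 totals with 20 reads (91 higher, 127 lower), on thinning (51 and 65) and with that floor (45 and 55). The number of pairs tested changed with these settings. As a percentage of them, lower shares after CF Im25 siRNA were 0.503% with 100 reads and 0.482% on thinning, against 2.41%. Higher shares after CF Im25 siRNA were 15.5% with 20 reads, 13.6% with 100 reads and 13.7% on thinning, against 14.9%. After CF Im68 siRNA they were 22.9%, 14.0% and 18.9%, against 20.2%. The causes were not tested.

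Of 317 recomputed share changes of named pairs, 313 kept their call and none changed sign. The others lost it: the chromosome 11 fall after CF Im25 siRNA and the chromosome 19 and 4 falls after CF Im68 siRNA at 30 points, and the chromosome 19 fall on thinning (-10.9 points). In the RNase I scrambled library a pair had a median of 46 reads, which left more pairs untested there.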
